A study of Mus musculus with 4 samples.

Results

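To follow the genes of mitochondrial respiration in the colon of aging mice, the nuclear-encoded subunits of the respiratory chain and of ATP synthase were examined in scrapings of the colon of male mice of the inbred strain C57BL/6J. A gene was included when its symbol began with Ndufa, Ndufb, Ndufc, Ndufs, Ndufv, Sdha, Sdhb, Sdhc, Sdhd, Uqcr, Cox4i, Cox5, Cox6, Cox7, Cox8 or Atp5, and a gene with several probe sets was represented by the one of highest mean. This gave 93 of the 19938 genes measured by probe sets that match 1 gene. Of the 93 genes, 80 encode subunits: 34 of complex I, 4 of complex II, 8 of complex III, 17 of complex IV and 17 of ATP synthase. The other 13 were found through their symbols only. They are the 7 complex I assembly factors Ndufaf1 to Ndufaf7, the 4 complex II assembly factors Sdhaf1 to Sdhaf4, the supercomplex factor Cox7a2l and the paralogue Ndufa4l2.

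The mice were young (4 months) or old (21 months) and were fed for 2 weeks on purified food with 10% fat (low-fat) or 45% fat (high-fat). All of them had received the low-fat diet before they were divided, and the fat of both diets came from palm oil. RNA of the 6 young or 8 old mice of a diet group was pooled in equal amounts, and an Affymetrix Mouse Gene 1.0 ST array was run for each pool. With 4 arrays in all and 1 per group, no value below has a replicate error, and every single comparison sets 1 pool against another. Signals are log2 values, in which 1 unit is a 2.0-fold difference, and the small number of arrays limits their precision.

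The respiratory chain passes electrons from NADH (complex I) and succinate (complex II) through complex III and cytochrome c to oxygen at complex IV, and ATP synthase uses the proton gradient that complexes I, III and IV build. Most of its subunits are encoded in the nucleus and imported, whereas a few core proteins of complexes I, III, IV and ATP synthase are encoded in mitochondrial DNA. Colonocytes are known for their reliance on mitochondrial oxidation of butyrate, a fatty acid made by gut bacteria.

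The arrays carried the profile of colon. All 20 colonocyte markers and all 8 goblet cell markers had a linear signal over 50 on at least 1 array, the floor that the study used for expression, whereas 7 of 14 skeletal muscle markers stayed below it on every array. The summed linear signal of the colonocyte markers was 120000 on the young low-fat, 116000 on the young high-fat, 114000 on the old low-fat and 121000 on the old high-fat array. Other cell types differed more. The summed signal of 13 smooth muscle markers was 4730 on the young high-fat array and between 2030 and 2300 on the other arrays, and that of the 13 adipocyte markers measured, 11 of them above the floor, was 3450 on the young high-fat and 6310 on the old high-fat array, with 4280 and 4140 on the young and old low-fat arrays. Leukocyte markers were higher with age: the sum of the 9 T and B cell markers measured, 7 of them above the floor, was 664 and 670 on the young against 1040 and 1130 on the old arrays, and that of the 9 macrophage and dendritic cell markers, 8 of them above the floor, 823 and 824 against 1480 and 1390. In such scrapings, fewer cells of a type and less RNA per cell cannot be told apart. Pairs of arrays correlated across 12666 genes with Pearson's r from 0.9866, between the young and old high-fat arrays, to 0.9917, between the young low-fat and old high-fat arrays. Genes are not independent replicates, so this is a description only.

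Of the 80 subunits, 77 had a signal over 50 on at least 1 array, as had 12 of the 13 other genes. The genes that stayed below it were Cox6b2, Cox7b2 and Cox8c, isoforms of complex IV subunits best known from testis, and Ndufa4l2, a paralogue of the complex IV subunit Ndufa4 that is induced in hypoxia. Their highest linear signals were 40.2 for Cox6b2, 13.3 for Cox7b2, 38.6 for Cox8c and 37.5 for Ndufa4l2, and no fold change is given for them. The remaining 89 genes were compared with all 12666 genes that passed the same floor after pancreatic genes had been removed.

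As a group the subunits were lowest in old mice on the low-fat diet and highest in old mice on the high-fat diet. Relative to its own mean over the 4 arrays, the median subunit stood at -0.009 on the young low-fat, 0.004 on the young high-fat, -0.076 on the old low-fat and 0.086 on the old high-fat array, on the log2 scale. The medians over all genes were -0.008, -0.008, 0.002 and 0.01 in the same order. The old high-fat array held the highest signal of 51 of the 77 subunits, against 28.5% of all genes, and the old low-fat array held the lowest signal of 44, against 23.1% of all genes. Both were true of 35 subunits (45.5%), against 9.32% of all genes. Among the 51 is Cox8b, which passed the floor through the old high-fat array only, so its place there was fixed by the filter. The old low-fat array held the highest signal of 2 subunits (24.3% of all genes), and the old high-fat array the lowest signal of 5 (21.4% of all genes). The young arrays held fewer extremes: the highest signal of 8 subunits on the low-fat (23.0% of all genes) and 16 on the high-fat diet (24.2% of all genes), and the lowest of 16 (26.9% of all genes) and 12 (28.5% of all genes). On both old arrays the probe sets that match no gene stood opposite to the subunits. The median of 6969 such probe sets above the floor, again relative to their own mean, was -0.058 (young low-fat), 0.068 (young high-fat), 0.046 (old low-fat) and -0.062 (old high-fat), and the part of this shift in the subunit values was not tested.

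**Figure D1:**
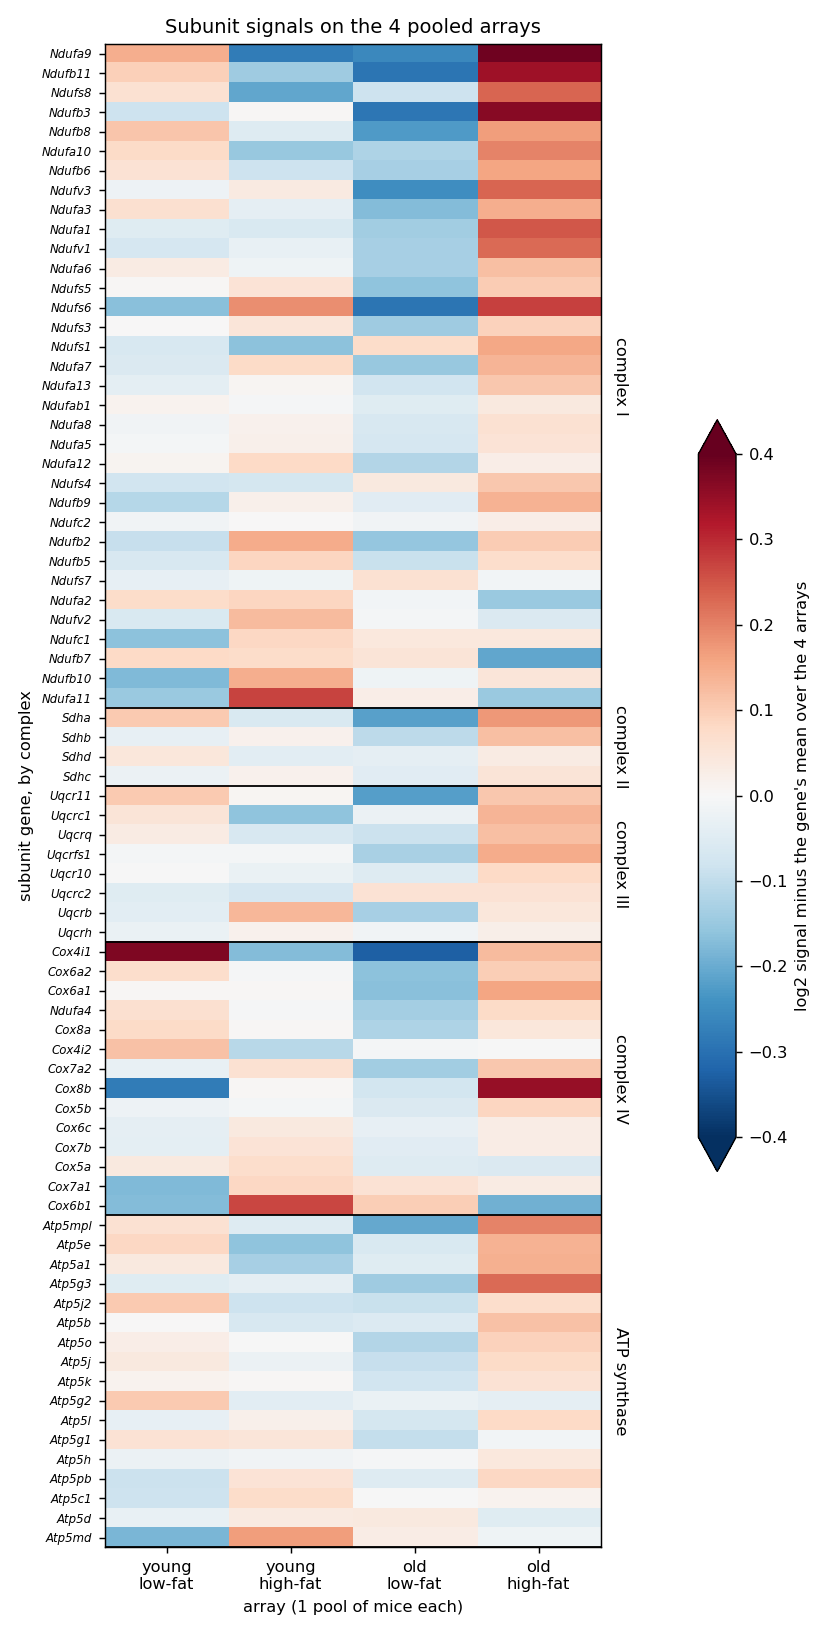
Log2 signal of each of the 77 subunits above the floor (vertical axis, grouped by complex) on the 4 arrays (horizontal axis, 1 pool of mice each), drawn as the difference from the gene's mean over the 4 arrays. Blue cells dominate the old low-fat column, which holds the lowest signal of 44 subunits, and red cells the old high-fat column, which holds the highest signal of 51.

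The differences behind this order were small. The median range of a subunit over the 4 arrays was 0.24 on the log2 scale, against 0.26 for all genes. The narrowest range was that of Ndufc2, a complex I subunit of the membrane arm singled out after its values were seen, at 0.04, and the widest that of Cox4i1 at 0.70. No subunit had a range of 2.0-fold or more, as 1.03% of all genes did. The subunits thus shared a direction, in differences of small size.

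To measure the effect of aging on the low-fat diet, the old and young low-fat arrays were compared. Of the 77 subunits 57 had a lower signal in old mice, against 48.8% of all genes, and 20 had a higher one, against 51.1% of all genes. The median log2 difference between old and young was -0.087, a 1.06-fold difference, while the median over all genes was 0.005. None of the 89 genes passed the 2.0-fold threshold of the study, which 0.426% of all genes did, and 1 passed 1.5-fold (2.26% of all genes). At 1.2-fold, 0.26 on the log2 scale, 7 subunits were lower (10.4% of all genes) and 1 was higher (12.1% of all genes), so that the count of lower subunits was near the background.

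The gene that passed 1.5-fold was Cox4i1, the widely expressed form of subunit IV of cytochrome c oxidase. Its log2 signal was 12.02 on the young low-fat, 11.48 on the young high-fat, 11.33 on the old low-fat and 11.78 on the old high-fat array. The young low-fat array was thus the highest and the old low-fat array the lowest, with an old minus young difference of -0.70 on the low-fat diet (1.62-fold lower in old mice). After it came 2 supernumerary subunits of complex I, Ndufa9 at -0.40 and Ndufb11 at -0.39, and then Ndufb8, of the membrane arm of complex I, at -0.34. The 4 highest differences were those of the assembly factors Ndufaf4 (0.32) and Ndufaf5 (0.26), of Cox6b1 (0.27) and of Sdhaf4 (0.24, with -0.35 for a second probe set that lay below the floor).

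On the high-fat diet most subunits were higher in old mice. Of the 77 subunits 58 had a higher signal on the old than on the young high-fat array, against 53.0% of all genes, and 19 a lower one, against 46.9% of all genes. The median difference was 0.086, with 0.015 over all genes. Again none of the 89 genes passed 2.0-fold (0.663% of all genes), and 1 passed 1.5-fold (3.41% of all genes). At 1.2-fold 12 subunits were higher (14.8% of all genes) and 3 were lower (10.3% of all genes), so the count of higher subunits was again near the background. This comparison shares no array with the one on the low-fat diet.

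Ndufa9, a subunit at the junction of the matrix and membrane arms of complex I, was the gene that passed 1.5-fold. Its log2 signal was 10.86 on the young low-fat, 10.43 on the young high-fat, 10.46 on the old low-fat and 11.10 on the old high-fat array. It was therefore near its lowest on the young high-fat and old low-fat arrays, which differ in both age and diet, and its age difference on the high-fat diet was 0.67 (1.59-fold higher in old mice). Next were Ndufb11 at 0.48, the core iron-sulfur subunit Ndufs8 at 0.44 and the assembly factor Ndufaf1 at 0.37. Ndufb11 had log2 signals of 10.29, 10.05, 9.90 and 10.53 on the low-fat and high-fat arrays of young and then of old mice. A second probe set of Ndufb11 gave 9.87, 9.73, 9.43 and 9.83 in the same order and hence a smaller age difference on the high-fat diet, 0.09, with -0.44 on the low-fat diet.

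A few genes ran the other way. Cox6b1, a complex IV subunit that faces the intermembrane space, had log2 signals of 11.16 on the young low-fat, 11.60 on the young high-fat, 11.43 on the old low-fat and 11.14 on the old high-fat array. It was higher with age on the low-fat diet (0.27) and lower with age on the high-fat diet (-0.46, 1.37-fold lower). Ndufa11, a membrane arm subunit of complex I, had 9.09, 9.50, 9.26 and 9.09 in that order, with age differences of 0.17 and -0.42, and its second probe set gave 0.11 and -0.50. Both genes had their peak on the young high-fat array, where the median subunit stood near its mean. Ndufb7, another membrane arm subunit, differed by -0.03 and -0.28.

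When the age differences on both diets were set against each other, 48 of the 77 subunits (62.3%) were lower with age on the low-fat and higher with age on the high-fat diet, against 31.3% of all genes. The opposite held for 10 subunits (29.4% of all genes), a higher signal with age on both diets for 10 (21.7% of all genes), and a lower one on both for 9 (17.4% of all genes). The age by diet difference, which is the age difference on the high-fat diet minus that on the low-fat diet, had a median of 0.157 over the subunits and 0.017 over all genes, and was above 0 for 60 subunits (51.9% of all genes). With 1 array per group it has no test. An age difference over 1.2-fold in opposite directions on both diets was found in 4 subunits (Cox4i1, Ndufa9, Ndufb11 and Cox6b1), near the 5.87% of all genes. Only Ndufa9, at 1.07, exceeded 1 in it among the 89 genes, as 0.568% of all genes did, and no member was below -1, as 0.742% of all genes were.

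**Figure D2:**
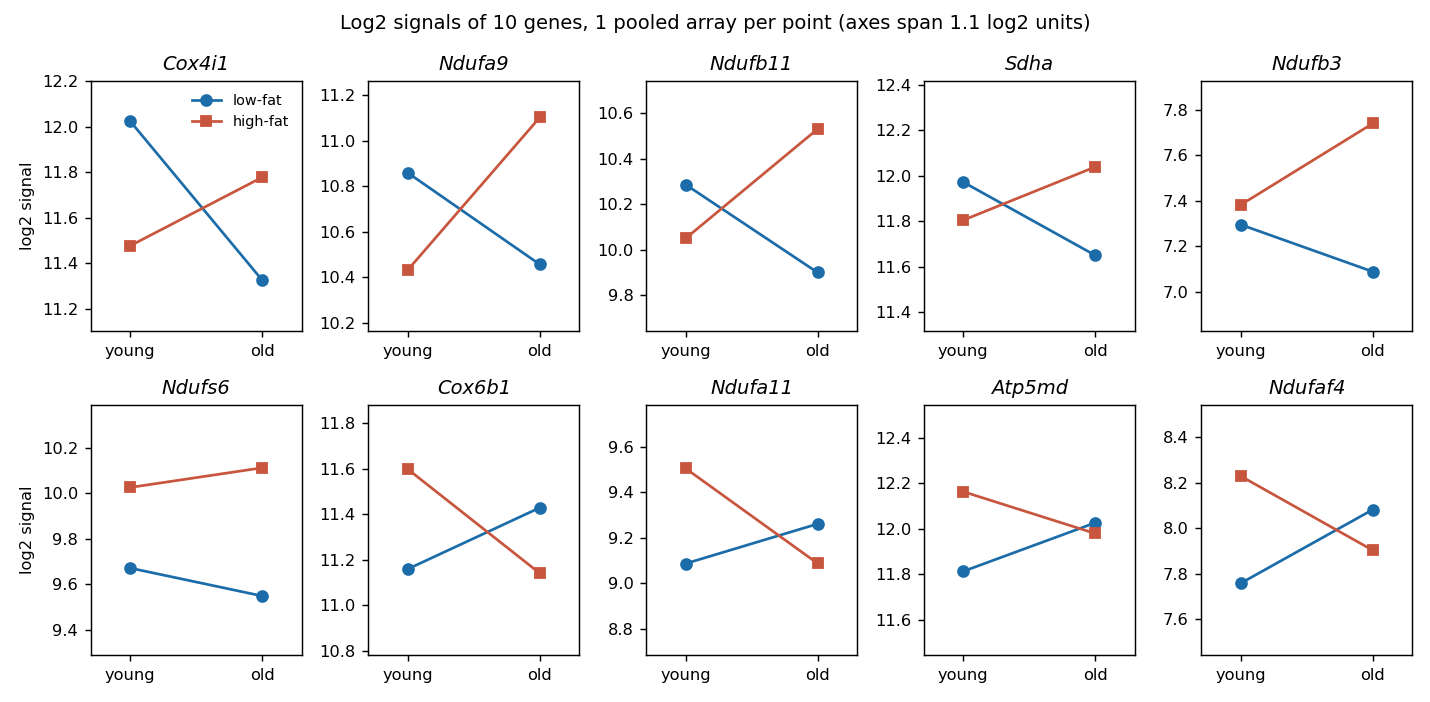
Log2 signals of 10 genes in young and old mice (horizontal axis) on the low-fat (blue) and high-fat (red) diet, 1 pooled array per point and no error bars; every vertical axis spans 1.1 log2 units. The lines of Cox4i1, Ndufa9, Ndufb11 and Sdha cross with old below young on the low-fat and above young on the high-fat diet, those of Cox6b1, Ndufa11, Atp5md and Ndufaf4 cross the other way, and Ndufs6 is higher on the high-fat diet at both ages.

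The sequence before the start of transcription is shown for subunits that have an entry in the promoter table. Of these, the 2 with the highest and the 2 with the lowest age by diet difference were chosen. Cox4i1, with a difference of 1.00, has no entry. Ndufb11 was chosen by a value of 0.87, and its second probe set gave 0.53. The sequences are from RefSeq (mouse assembly GRCm38.p6) and hold the 250 bases before the start, read 5′ to 3′ on the strand of the gene. Ndufa9 lies on chromosome 6 (chr6:126849145-126849394, minus strand), Ndufb11 on chromosome X (chrX:20617620-20617869, minus strand), Cox6b1 on chromosome 7 (chr7:30626115-30626364, minus strand) and Ndufa11 on chromosome 17 (chr17:56717512-56717761, plus strand). Capitals mark matches, on either strand, to letters bound by factors known to act on respiratory genes (NRF1, ETS factors such as GABP, YY1 and ERR).
Ndufa9: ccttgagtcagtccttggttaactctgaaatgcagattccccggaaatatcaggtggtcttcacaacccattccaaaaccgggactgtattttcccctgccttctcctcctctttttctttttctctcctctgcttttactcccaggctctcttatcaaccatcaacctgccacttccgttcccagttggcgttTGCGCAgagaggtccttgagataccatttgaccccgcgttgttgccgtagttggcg
Ndufb11: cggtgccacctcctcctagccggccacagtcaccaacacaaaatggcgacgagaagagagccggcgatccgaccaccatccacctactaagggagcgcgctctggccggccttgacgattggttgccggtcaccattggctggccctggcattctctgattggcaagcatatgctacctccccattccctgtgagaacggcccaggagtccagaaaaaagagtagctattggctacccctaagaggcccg
Cox6b1: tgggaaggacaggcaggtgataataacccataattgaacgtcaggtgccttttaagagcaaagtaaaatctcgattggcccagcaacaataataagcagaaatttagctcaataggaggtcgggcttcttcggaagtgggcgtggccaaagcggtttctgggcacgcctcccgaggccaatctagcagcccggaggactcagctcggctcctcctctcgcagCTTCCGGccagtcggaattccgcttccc
Ndufa11: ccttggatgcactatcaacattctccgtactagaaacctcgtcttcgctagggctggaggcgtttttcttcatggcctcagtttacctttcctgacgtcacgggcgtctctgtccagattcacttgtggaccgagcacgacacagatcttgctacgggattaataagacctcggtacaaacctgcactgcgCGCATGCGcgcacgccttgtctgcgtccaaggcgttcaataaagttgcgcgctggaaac

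The Ndufa9 sequence holds TGCGCA, a part of longer NRF1 sites, 56 bases before the start. That of Cox6b1 holds CTTCCGG, the ETS letters CCGGAAG on the other strand, 28 bases before the start, and that of Ndufa11 the palindromic NRF1 core CGCATGCG 59 bases before it. None of these letters is in the Ndufb11 window. The windows were chosen by the age by diet difference of their genes, and the part of these letters in the differences was not tested.

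Over all promoters of the table, 300 bases each with 50 of them after the start, the motifs were searched on both strands in 69 promoters of 64 subunit genes and in all 32851 promoters. The NRF1 core CGCATGCG was in 13.0% of the subunit promoters and 1.87% of all promoters, and TGCGCA, which can overlap it, in 26.1% and 7.76%. The ETS letters CCGGAAG were in 24.6% and 8.86%, the YY1 letters AAGATGGCG in 10.1% and 1.4% and AAGATGG, which they contain, in 14.5% and 6.34%. TCAAGGTCA, bound by estrogen-related receptors, was in 2.9% and 0.423%. By contrast, the GC box GGGCGG was in 37.7% of subunit and 35.7% of all promoters, and TATAAA in 11.6% and 13.6%. Some genes have several promoters that can overlap, and these shares describe sequence only.

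To measure the effect of the high-fat diet in young mice, the young high-fat and low-fat arrays were compared. The subunits divided evenly, with 41 higher (49.0% of all genes) and 36 lower (51.0% of all genes) on the high-fat diet. The median difference was 0.010, with -0.005 over all genes, and its sign turned when arrays were centred on their medians (-0.058), so no direction is given. None of the 89 genes passed 2.0-fold (0.118% of all genes) or 1.5-fold (1.45% of all genes). At 1.2-fold 6 subunits were higher (10.8% of all genes) and 3 were lower (11.4% of all genes). The lowest differences were those of Cox4i1 (-0.55), Ndufa9 (-0.43), Ndufs8 (-0.27) and Atp5e (-0.24), and the highest those of the assembly factor Ndufaf4 (0.47), Cox6b1 (0.44), Ndufa11 (0.42) and Ndufs6 (0.35).

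In old mice the high-fat diet was accompanied by higher subunit signals. Of the 77 subunits 66 were higher on the old high-fat than on the old low-fat array, against 51.5% of all genes, and 11 were lower, against 48.5% of all genes. The median difference was 0.169 (1.12-fold), and 0.007 over all genes. None of the 89 genes passed 2.0-fold (0.103% of all genes), 3 passed 1.5-fold (1.14% of all genes), and at 1.2-fold 22 subunits were higher (10.6% of all genes) and 1 was lower (8.85% of all genes). This was the comparison in which the subunits stood farthest from all genes. It shares the old low-fat array with the age comparison on the low-fat diet and the old high-fat array with that on the high-fat diet, so these results are not independent of each other.

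The 3 genes over 1.5-fold were complex I subunits. Ndufb3, of the membrane arm, had log2 signals of 7.29 on the young low-fat, 7.38 on the young high-fat, 7.09 on the old low-fat and 7.74 on the old high-fat array, a diet difference of 0.65 in old mice (1.57-fold). Ndufa9 differed by 0.65 and Ndufb11 by 0.63, with 0.39 for its second probe set. Ndufs6, which carries a zinc site near the iron-sulfur clusters, had 9.67, 10.03, 9.55 and 10.11 on the low-fat and high-fat arrays of young and then of old mice. It was higher on the high-fat diet at both ages, by 0.35 and 0.56. The lowest diet differences in old mice were those of the complex II assembly factors Sdhaf4 (-0.30) and Sdhaf3 (-0.27), of Cox6b1 (-0.29), the only subunit over 1.2-fold lower, and of Ndufb7 (-0.26). A second probe set of Sdhaf4, below the floor on every array, gave 0.42, and the mean of both probe sets 0.059, so the sign for Sdhaf4 depends on the probe set.

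Among the subunits 32 (41.6%) were higher on the high-fat diet at both ages, against 18.1% of all genes, and 2 were lower at both ages, against 17.6% of all genes. These comparisons, in young and in old mice, have no array in common. The count rests on the 66 subunits that were higher in old mice, because in young mice 41 were higher and 36 lower. It does not show a diet difference repeated at both ages. The old high-fat array was also set against the young low-fat array, and 65 subunits were higher on it (55.5% of all genes), with a median of 0.088. The old low-fat array was below the young high-fat array for 61 subunits (47.6% of all genes) and above it for 16 (52.4% of all genes), with a median of -0.090. Both old arrays thus stood apart from both young arrays, in opposite directions.

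**Figure D3:**
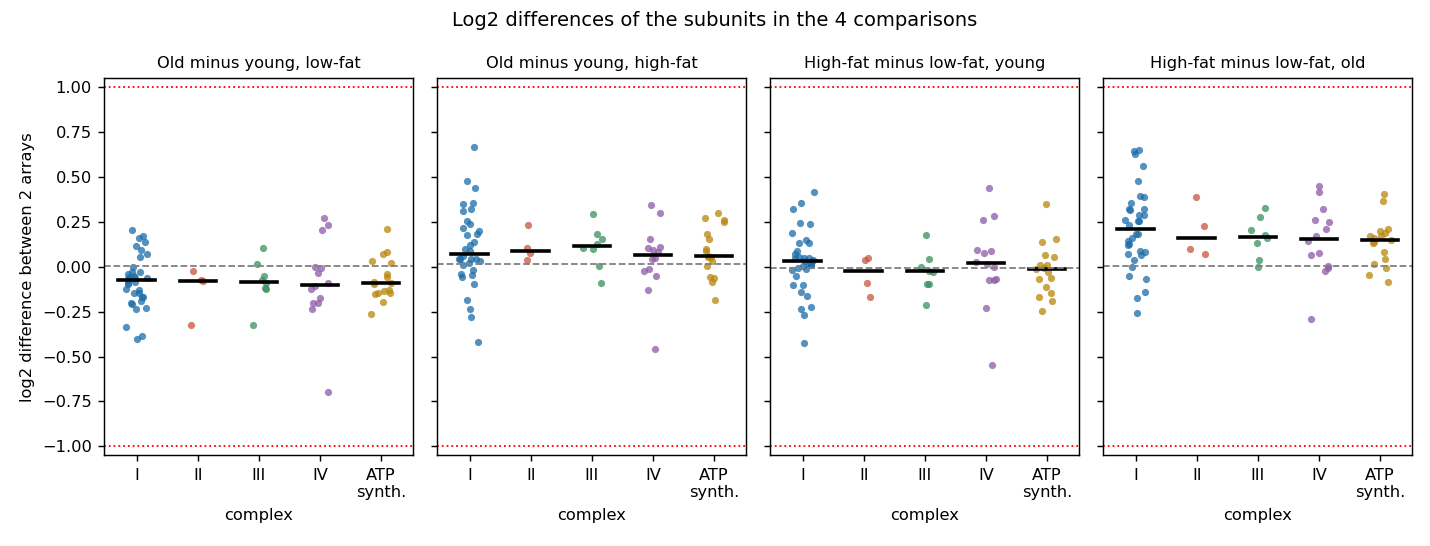
Log2 differences of the 77 subunits in the 4 comparisons, 1 panel each, by complex (horizontal axis); black bars are medians, the grey dashed line is the median of all genes and red dotted lines mark 2.0-fold. All points lie within 2.0-fold, and the medians of all 5 complexes lie below the grey line on the low-fat diet and above it on the high-fat diet and in old mice.

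The medians of the 5 complexes had the same signs in both age comparisons and in old mice. In complex I the medians were -0.075 (old minus young, low-fat), 0.073 (old minus young, high-fat), 0.031 (high-fat minus low-fat, young) and 0.210 (high-fat minus low-fat, old), and 29 of 34 subunits were higher with the high-fat diet in old mice (51.5% of all genes). Its 6 core subunits, which carry the flavin and iron-sulfur clusters, had medians of -0.006, 0.148, 0.025 and 0.158, and the 28 supernumerary subunits, which surround the core, -0.087, 0.073, 0.031 and 0.219. Of the core subunits Ndufs1 had log2 signals of 10.64, 10.54, 10.78 and 10.86 on the low-fat and high-fat arrays of young and then of old mice and so was higher in old mice on both diets. Ndufs3 had 11.25, 11.30, 11.11 and 11.34 in the same order and followed the common pattern. Whether the complexes or their parts differ was not tested.

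Complex II, or succinate dehydrogenase, is the only complex with no subunit from mitochondrial DNA. All 4 of its subunits were lower with age on the low-fat diet (48.8% of all genes). They were higher with age on the high-fat diet (53.0% of all genes) and with the high-fat diet in old mice (51.5% of all genes). Sdha, the flavoprotein, had log2 signals of 11.97 on the young low-fat, 11.80 on the young high-fat, 11.65 on the old low-fat and 12.04 on the old high-fat array, with age differences of -0.32 and 0.23. The iron-sulfur subunit Sdhb differed by -0.07 and 0.10, and the membrane anchors Sdhc and Sdhd by -0.02 and 0.04 and by -0.08 and 0.08. The shift of Sdha was thus wider than that of its partners, all of which stayed within 1.2-fold in these comparisons.

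Complex III passes electrons from ubiquinol to cytochrome c. All 8 of its subunits found by symbol were higher with the high-fat diet in old mice (51.5% of all genes), by 0.002 to 0.33. Subunits of this complex with other symbols, and those from mitochondrial DNA, are not among the 8. The medians in the age comparisons were -0.082 and 0.116. The small subunit Uqcr11 had the lowest difference with age on the low-fat diet, -0.32, and log2 signals of 9.07, 8.97, 8.75 and 9.07 on the low-fat and high-fat arrays of young and then of old mice. Uqcrb, a ubiquinone-binding protein, differed by -0.09 with age on each diet, with 0.02 and 0.03 on the high-fat diet for 2 other probe sets, and the core protein Uqcrc2 was higher with age on both (0.10 and 0.13).

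Of the 14 complex IV subunits above the floor 10 were lower with age on the low-fat diet (48.8% of all genes), 9 were higher with age on the high-fat diet (53.0% of all genes) and 11 were higher with the high-fat diet in old mice (51.5% of all genes), with medians of -0.101, 0.066 and 0.157. Several subunits of this complex exist in a widely expressed and a tissue-restricted form. The hypoxia-linked form Cox4i2 had linear signals of 58.5 on the young low-fat, 53.6 on the old low-fat and 53.9 on the old high-fat array and stood at the floor on the young high-fat array, so its differences are imprecise and are not set against those of Cox4i1. The heart and muscle forms were also near or under the floor in part. Cox6a2 had linear signals of 60.9 to 73.1. Cox8b had 38.8 on the young low-fat, 47.3 on the young high-fat, 44.8 on the old low-fat and 59.9 on the old high-fat array. It thus passed the floor through the old high-fat array only. In every comparison of that array with another, Cox8b is therefore counted as higher through the filter alone, here and among the 77 subunits. Cox7a1, the muscle form of subunit VIIa, had linear signals of 758 on the young low-fat, 908 on the young high-fat, 893 on the old low-fat and 877 on the old high-fat array. It was thus lowest on the young low-fat and highest on the young high-fat array, where the sum of the smooth muscle markers was highest too, and their part in it was not tested.

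Of the 10 widely expressed subunits of this complex, 8 were lower with age on the low-fat diet (48.8% of all genes). On the high-fat diet 6 were higher with age (53.0% of all genes) and 4 were lower (46.9% of all genes). Cox6a1 had log2 differences of -0.17 and 0.15 with age on the low-fat and high-fat diet, Cox7a2 -0.11 and 0.05, Cox8a -0.20 and 0.04, and Ndufa4, which was long counted in complex I, -0.20 and 0.08. With the high-fat diet in old mice they were higher by 0.32, 0.25, 0.17 and 0.21. Cox6c and Cox7b hardly differed with age on either diet, at 0.00 and -0.01 and at -0.00 and -0.02. Cox5a was lower with age on both diets, at -0.09 and -0.13, and Cox6b1 ran the other way, at 0.27 and -0.46.

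In ATP synthase 12 of 17 subunits were lower with age on the low-fat diet (48.8% of all genes), 13 were higher with age on the high-fat diet (53.0% of all genes) and 14 were higher with the high-fat diet in old mice (51.5% of all genes). The medians were -0.091, 0.059 and 0.149. In the catalytic F1 part, the alpha subunit Atp5a1 had age differences of -0.09 and 0.27 and the epsilon subunit Atp5e -0.15 and 0.30. The genes Atp5g1, Atp5g2 and Atp5g3 encode the same mature protein of the rotating c-ring and differ in their import sequences. All 3 were lower with age on the low-fat diet, with differences of -0.15, -0.13 and -0.09, whereas with the high-fat diet in old mice Atp5g3 was higher by 0.37 and Atp5g1 and Atp5g2 differed by 0.08 and -0.01. Atp5h and Atp5pb, of the peripheral stalk, differed by 0.05 or less with age on either diet, but a second probe set of Atp5pb gave -0.19 and -0.07.

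The genes that are not subunits had medians of the opposite sign in both age comparisons. Among the 12 above the floor, 8 were higher with age on the low-fat diet (51.1% of all genes) and 8 were lower with age on the high-fat diet (46.9% of all genes), with medians of 0.085 and -0.048. With the high-fat diet in old mice 7 of the 12 were higher (51.5% of all genes), with a median of 0.058, the same sign as in the subunits. Ndufaf4, an assembly factor of complex I, had log2 signals of 7.76 on the young low-fat, 8.23 on the young high-fat, 8.08 on the old low-fat and 7.90 on the old high-fat array. All 4 complex II assembly factors were higher with age on the low-fat diet (51.1% of all genes), with a median of 0.205. With the high-fat diet in old mice 3 of them were lower (48.5% of all genes), with a median of -0.194. The 4 complex II subunits were lower and higher in these comparisons. Sdhaf4 is in both counts of assembly factors, and its second probe set, below the floor, ran the other way (-0.35 and 0.42). The supercomplex factor Cox7a2l differed by -0.21 and -0.11 with age and by 0.13 and 0.23 with the high-fat diet. Its second probe set had the opposite sign with age, 0.07 and 0.09, so no direction with age is given for it. The difference between subunits and assembly factors was not tested.

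Of the subunits encoded in mitochondrial DNA, ND3 and COX2 were measured. ND3, a subunit of complex I, had log2 signals of 12.97, 13.06, 13.02 and 13.02 on the low-fat and high-fat arrays of young and then of old mice. COX2, a catalytic subunit of complex IV, had 13.48, 13.63, 13.52 and 13.54. Both had their highest signal in young mice on the high-fat diet, and neither was lowest on the old low-fat array.

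Other gene lists of mitochondria and energy metabolism were described in the same way. The carriers and membrane proteins of mitochondria, such as the ATP/ADP exchangers, the channels of the outer membrane and the fusion proteins, followed the subunits. Their medians were -0.064 and 0.110 with age on the low-fat and high-fat diet and 0.139 with the high-fat diet in old mice. In this last comparison 17 of 18 genes were higher, against 51.5% of all genes. The 13 electron carrier genes (ubiquinone synthesis, electron-transferring flavoproteins and cytochrome c) had medians of -0.031, 0.186 and 0.134, but cytochrome c itself (Cycs) ran the other way, at 0.25, -0.29 and -0.16. The 22 genes of the citric acid cycle and pyruvate metabolism had medians of 0.042, 0.156 and 0.054. Pyruvate carboxylase (Pcx) was the only gene of these metabolic lists over 2.0-fold, 1.15 higher with age on the high-fat diet, with log2 signals of 8.80, 7.86, 8.41 and 9.01 on the low-fat and high-fat arrays of young and then of old mice. It was lowest where adipocyte markers were lowest and highest where they were highest, and their part in it was not tested.

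The 17 fatty acid oxidation genes had medians of 0.003, 0.101 and 0.048, the 77 mitochondrial ribosomal proteins 0.018, 0.003 and 0.091, and 35 other assembly factors 0.013, 0.028 and 0.059. The 18 regulators of mitochondrial biogenesis had medians of 0.012, -0.034 and 0.023. Ppargc1a, the coactivator that drives such genes, had log2 signals of 9.28 on the young low-fat, 9.81 on the young high-fat, 9.71 on the old low-fat and 9.37 on the old high-fat array. Its age difference on the high-fat diet, -0.44, was the lowest of the 18 regulators, and that of Twnk, 0.60, the highest. The regulators thus shared no direction.

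The shift was not limited to mitochondria. The 13 glycolysis genes had larger medians of the same signs, -0.153 and 0.369 with age on the low-fat and high-fat diet and 0.281 with the high-fat diet in old mice. In these comparisons 12 of 13 were lower, higher and higher, against 48.8%, 53.0% and 51.5% of all genes. Pfkl, which encodes a phosphofructokinase, had log2 signals of 9.93, 9.41, 9.23 and 9.90 on the low-fat and high-fat arrays of young and then of old mice. The 38 genes with proteasome symbols had medians of -0.059, 0.180 and 0.176, the 62 cytosolic ribosomal proteins -0.037, 0.018 and 0.102, and the 20 colonocyte markers -0.078, 0.056 and 0.100. Adipocyte markers had medians of -0.075, 1.140 and 0.788, and smooth muscle markers -0.041, -1.013 and 0.017. The part of these cell types in the subunit differences was not tested.

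**Figure D4:**
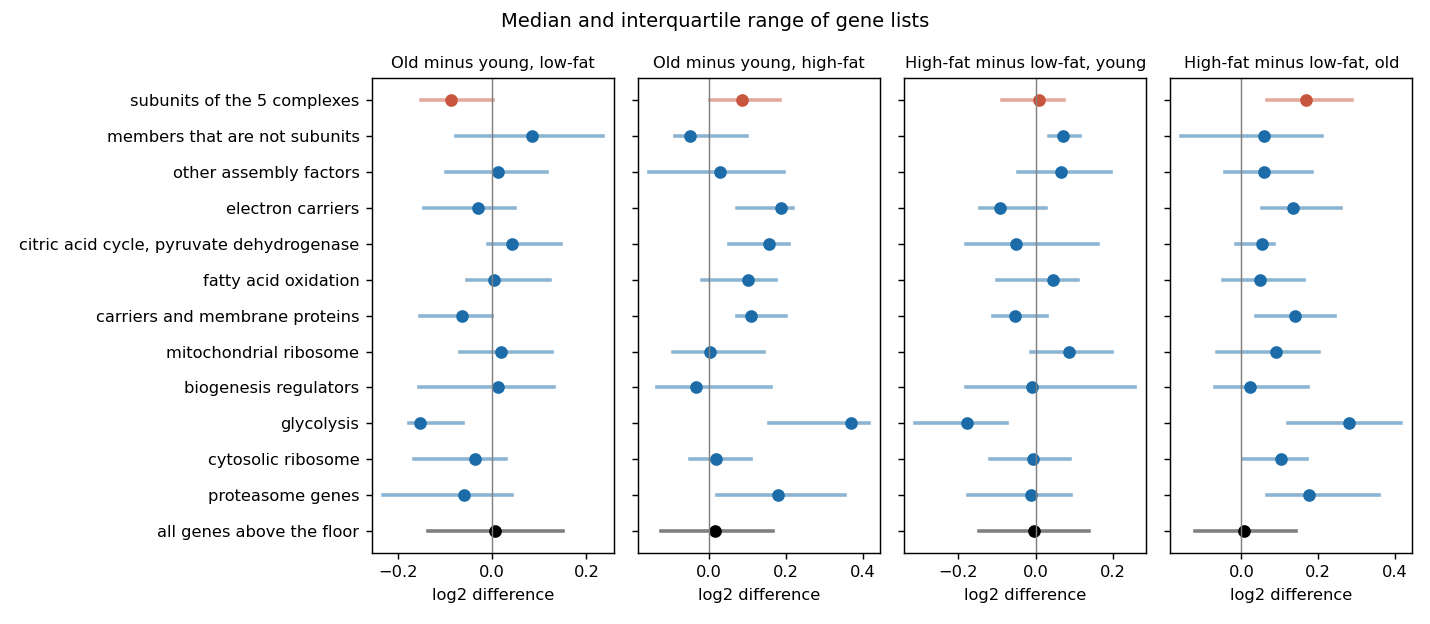
Median (point) and interquartile range (bar) of the log2 differences of 12 gene lists and of all genes above the floor (black) in the 4 comparisons; red marks the subunits of the 5 complexes, and horizontal axes differ between panels. Subunits, electron carriers, carriers and membrane proteins, glycolysis, cytosolic ribosome and proteasome genes have medians left of 0 on the low-fat diet. On the high-fat diet and in old mice the medians of these lists lie right of 0.

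Age and diet were also fitted together as additive terms over the 4 arrays with limma. Its error comes from age by diet differences, mostly those of all genes (1 residual against 8.92 prior degrees of freedom). It does not measure the spread between pools. None of the 89 genes passed an adjusted p of 0.05 for age, as 0.395% of all genes did, and none had an unadjusted p under 0.05, as 3.68% of all genes had. For diet no gene of the array passed (0.0%), and 2 of the 89 genes had an unadjusted p under 0.05, as 0.718% of all genes had. These were Ndufs6, with a limma log2 difference of 0.46 ± 0.16 (SE, adjusted p = 1), and Cox8b, with 0.35 ± 0.16 (SE, adjusted p = 1), both higher on the high-fat diet in 2 of 2 pairs of arrays. Cox8b passed the floor only through a high-fat array, so its value supports nothing, and at a floor of 100 only 1 member had an unadjusted p under 0.05. Opposite age differences on both diets, which 58 subunits had, add to the error of this fit, so it does not bear on them.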

How the data were processed

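RNA of colon scrapings was measured on 4 Affymetrix Mouse Gene 1.0 ST arrays, 1 pool of mice each. The authors deposited log2 signals computed by Robust Multi-array Average (RMA, version not given in the sources used here). RMA quantile normalizes the arrays, so a shift common to all genes cannot be seen. The table holds 35556 probe sets, of which 21789 match 1 gene, 1621 several and 12146 none; the study defined probe sets by Entrez gene, which differs from the deposited rows. The Entrez identifiers of all 93 genes were found in a RefSeq table (GRCm38.p6), used for names; they had 119 probe sets, and 18 genes had several. Array medians lay between 6.121 and 6.201, and 57.1% to 58.0% of probe sets had a signal over 50.

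Differences are log2 signals subtracted between 2 arrays. Following the study, genes with a linear signal over 50 on at least 1 array entered, pancreatic genes were removed by a list of acinar genes, and folds over 2.0 were counted, which left 12666 genes. No p-value is given for a single comparison. The additive fit used limma 3.58.1 in R 4.3.3 (lmFit, eBayes, Benjamini-Hochberg over 12666 genes), with 1 residual degree of freedom and a prior of 8.92. It was tested on simulated data.

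The members and all gene lists were chosen with earlier results of these data known. Named were the 4 highest and 4 lowest members in each comparison, the subunit of each complex with the highest and lowest mean age difference, isoform sets, all complex II subunits, members below the floor, and genes whose probe sets differ in sign. In other lists, genes over 2.0-fold or at an extreme were named. Alternatives were other floors and fold thresholds, centring, quantile normalization, the mean of the probe sets, other member sets, other settings of the fit and leave-one-out fits. A background of bright genes, all 6 pairs of arrays and other probe sets were added after seeing the data.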

Additional observations from a re-analysis of the deposited data

Results flagged for a closer look

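For 5 of the 89 genes the age difference passed 1.2-fold in opposite directions on both diets, as it did for 5.87% of all genes, so the number is near the background. The age by diet difference was 1.07 for Ndufa9, 1.00 for Cox4i1 and 0.87 for Ndufb11, which were lower with age on the low-fat and higher with age on the high-fat diet. It was -0.73 for Cox6b1 and -0.65 for the assembly factor Ndufaf4, which ran the other way. A second probe set of Ndufb11 gave 0.53, with an age difference of 0.09 on the high-fat diet that is under 1.2-fold. With 1 array per group these differences were not tested.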

How the results depend on the processing

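The 0 counts at 2.0-fold stayed 0 under other floors, centring, quantile normalization, the mean of the probe sets and in all 6 pairs of arrays. At 1.5-fold 1, 1, 0 and 3 of the 89 genes passed, and at 1.2-fold 9, 17, 10 and 26 (age on the low-fat diet, age on the high-fat diet, diet in young mice, diet in old mice). Of all genes 2.26%, 3.41%, 1.45% and 1.14% passed 1.5-fold in that order. At 1.2-fold 12.1%, 14.8%, 10.8% and 10.6% of all genes were higher, and 10.4%, 10.3%, 11.4% and 8.85% were lower. The 1.2-fold counts for age and for diet in young mice were thus below the background. When each array was centred on the median of all probe sets, the subunit medians became -0.166, 0.155, -0.058 and 0.249 in that order, and the age by diet median 0.305; centring shifts all genes of an array alike, so their distance from the all-gene median is kept. The diet difference in young mice thereby turned its sign. With 24 other probe sets of 16 genes the medians were -0.066, 0.031, 0.033 and 0.132, against -0.037, 0.036, 0.053 and 0.113 for the probe sets used for those genes. The medians of the 67 subunits with a mean log2 signal over 9 were -0.080, 0.077, 0.010 and 0.159, against 0.033, -0.007, 0.035 and -0.002 for 3511 genes that bright. Of 106 recomputed summary values 93 kept within the set tolerance (0.05 on the log2 scale for a median, 1.5-fold for a count). Among 172 values of named genes the sign turned in 18 after centring, in 8 after quantile normalization and in 8 with the mean of the probe sets, the largest being 0.069, 0.078 and 0.302 in size, the last that of Sdhaf4 with the high-fat diet in old mice. The limma fits called 0 of the genes under every alternative (without each array in turn, 0 to 0). No paired analysis was possible because each group had 1 array. The 4 pooled arrays, and signals near the floor for the restricted isoforms, limit what can be seen.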

Other observations

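Probe sets that match several genes were not counted above. Of these, 3 match Cox7c, a complex IV subunit, together with the gene model Gm12338, and had log2 differences of 0.17, 0.16 and 0.19 with the high-fat diet in old mice and of -0.08, -0.07 and -0.08 with age on the low-fat diet. The 2 that match Ndufb4 and Ndufb4b, and the 1 that matches Ndufs5 and Ndufs5-ps, were higher with the high-fat diet in old mice as well (0.17, 0.18 and 0.10), but they were also higher with age on the low-fat diet (0.12, 0.11 and 0.11). Which of the genes gave the signal cannot be told from these probe sets.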
